A study of Mus musculus with 7 samples.

Results

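Wnt4 and the other Wnt ligands of the pancreatic islet were examined as a group of 10 secreted signalling genes, Wnt4, Wnt5a, Wnt5b, Wnt2b, Wnt3, Wnt7b, Wnt9a, Wnt9b, Wnt10a and Wnt11. All non-control probes whose transcript accession belonged to one of these symbols were taken, which gave 14 of the 56605 probes on the array and 10 of its 22911 named genes. Every probe was kept, and each had 1 spot per array. The questions were which ligands gave a signal above background in islets and whether any of them was higher where Wnt4 was lower.

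Islet RNA came from 3 control and 4 Wnt4βKO samples, with 1 array per sample. The study's array methods do not say whether each of these samples was 1 mouse. Wnt4βKO mice were Pdx1CreER Tg+; Wnt4fl/fl, and control mice were Pdx1CreER Tg-; Wnt4fl/fl, so the floxed alleles were shared by both groups and the Cre was not. Both groups had been crossed to C57BL/6J and received 2 doses of tamoxifen (50 mg/mL, by gavage) at 4 to 5 weeks, and islets were collected at 7 weeks, from males per the study's methods. The Pdx1 promoter restricts recombination to Pdx1-expressing cells, chiefly β-cells, while the RNA was that of whole islet preparations. The labels give no Cre-positive group without floxed alleles, so an effect of the Cre and of the loss of Wnt4 cannot be told apart. In other experiments of the study Pdx1CreER; Wnt4fl/+ mice showed no phenotype, but no such mice are among these arrays. The study's reporting summary states that 1 further control sample was excluded on quality, and it was not analysed here.

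The 9 β-cell markers, among them Ins1 and Ins2, were well above background on all 7 arrays, and their mean log2 signal was 11.76 to 12.07 per array. Ins1 differed by 0.29 ± 0.098 (SE) between the groups, Ins2 by 0.013 ± 0.078 and Gcg, the α-cell hormone gene, by -0.23 ± 0.18, with adjusted limma p-values of 0.632, 0.986 and 0.866. The Ins2 probe read 15.67 or 15.82 on every array, near the top of the quantile-normalized scale. Values there are set by rank, so the Ins2 difference does not show whether its level changed. The 19 tested markers of acinar cells, the enzyme-producing cells of the exocrine pancreas, were also high. Their mean was 13.82 to 13.97 in control and 12.95 to 13.73 in Wnt4βKO arrays, below control in all 4, and lowest in Wnt4βKO replicates 1 (12.95) and 4 (13.18). Of the 19 acinar markers, 5 were lower at an unadjusted limma p under 0.05 and 0 were higher, where 3.63% of all tested probes were lower and 3.33% higher at that level. The means of all the other marker lists overlapped between the groups. Control and Wnt4βKO arrays had 8.53 to 9.02 and 8.65 to 8.92 for α-cells, 11.25 to 11.29 and 11.26 to 11.38 for δ- and PP-cells, and 7.45 to 7.53 and 7.07 to 7.54 for duct. They had 7.89 to 8.17 and 7.68 to 8.36 for endothelium, 6.93 to 7.91 and 6.72 to 7.91 for mesenchyme, 8.01 to 8.17 and 7.85 to 8.99 for immune cells, and 6.56 to 7.27 and 6.37 to 6.96 for Schwann cells. The bright α-cell marker Ttr had no value in control replicate 2 and Wnt4βKO replicate 3. Those arrays gave the low ends of the α-cell ranges, 8.53 and 8.65, from fewer genes than the other arrays. Per array, 45.5% to 49.0% of the non-control spots passed the scanner's call for well above background, and 0 spots were saturated. Precision is limited by there being 7 arrays.

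Wnt proteins are lipid-modified glycoproteins that act over short distances. Porcupine (Porcn) attaches the lipid, Wntless (Wls) carries the ligand to the cell surface, and Frizzled receptors bind it on the receiving cell. With the co-receptors Lrp5 and Lrp6 this stabilises β-catenin, which acts with TCF/LEF factors on target genes, and with Ror2 or Ryk it signals without β-catenin, through cell polarity and calcium. Wnt4, Wnt5a, Wnt5b and Wnt11 are best known for the second kind of signalling and Wnt3 for the first, although the response depends on the receptors present.

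Sequences before the transcription starts are shown for Wnt4, the inactivated gene, and for Wnt5b, whose probes are annotated to different transcript accessions and gave different results. They are from a set of windows before RefSeq starts on mouse build GRCm38.p6, which held 7 of the 10 ligands. Wnt5a, Wnt7b and Wnt10a were missing from that set, though RefSeq has transcripts of all of them. Each is the 250 bases before a start, 5′ to 3′ on the strand of the gene, and capitals mark the TCF/LEF letters CTTTGAT or, on the other strand, ATCAAAG. Wnt4 lies on the plus strand (chr4:137277385-137277634) and Wnt5b on the minus strand, with starts numbered in the order of transcription (chr6:119544348-119544597, chr6:119467212-119467461 and chr6:119449387-119449636).
Wnt4 start 1: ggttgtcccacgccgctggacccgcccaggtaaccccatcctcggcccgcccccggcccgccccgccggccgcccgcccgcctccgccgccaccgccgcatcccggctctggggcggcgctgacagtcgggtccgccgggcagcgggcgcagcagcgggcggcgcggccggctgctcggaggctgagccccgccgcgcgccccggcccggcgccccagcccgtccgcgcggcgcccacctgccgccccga
Wnt5b start 1: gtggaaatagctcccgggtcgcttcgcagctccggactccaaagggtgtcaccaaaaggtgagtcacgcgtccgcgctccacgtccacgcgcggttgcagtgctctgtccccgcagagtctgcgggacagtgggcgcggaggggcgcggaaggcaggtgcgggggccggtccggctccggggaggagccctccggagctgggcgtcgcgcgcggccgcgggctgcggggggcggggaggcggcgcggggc
Wnt5b start 2: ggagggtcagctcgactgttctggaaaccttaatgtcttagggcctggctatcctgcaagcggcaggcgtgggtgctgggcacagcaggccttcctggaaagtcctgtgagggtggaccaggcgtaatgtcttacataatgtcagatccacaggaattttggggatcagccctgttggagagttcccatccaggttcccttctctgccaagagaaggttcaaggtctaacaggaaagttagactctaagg
Wnt5b start 3: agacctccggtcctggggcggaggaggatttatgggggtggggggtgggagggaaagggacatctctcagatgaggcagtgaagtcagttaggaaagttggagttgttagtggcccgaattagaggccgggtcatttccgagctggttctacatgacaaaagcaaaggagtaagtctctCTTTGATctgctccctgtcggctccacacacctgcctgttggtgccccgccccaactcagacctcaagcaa

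The Wnt4 window was 85.2% G and C and held 44 CG pairs, against medians of 52.4% and 6 over the 32851 windows in the table. The starts of Wnt5b differed among themselves. Start 1 was 75.2% G and C with 35 CG pairs, start 2 was 53.2% with 4 and start 3 was 55.6% with 7. The only TCF/LEF match among the 4 windows began 71 bases before Wnt5b start 3, and 3.21% of all windows held 1 or more. A match describes letters only and is not a measured site.

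Of the 10 ligands, 3 gave a probe well above background, by the scanner's own call, on all 7 arrays. They were Wnt4, Wnt5b and Wnt7b, a ligand known from lung and kidney development. The median spot signal of the Wnt4 probe (A_66_P139703) was between 1598 and 3516 intensity units. One Wnt7b probe (A_52_P231691) gave 1259 to 4512.5, and the Wnt5b probes gave 78 to 121 (A_51_P137991) and 62.5 to 149 (A_55_P1984976). All 4 probes were above background in both groups alike, so none of them entered the test through 1 group only. Brightness depends on the probe as well as on the transcript, so these signals do not rank the ligands.

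The other 10 probes gave 18 to 26.5 units, where the 308 negative control spots of an array had medians of 19 to 20 and 95th percentiles of 21 to 22. Both Wnt5a probes and the probes of Wnt2b, Wnt3, Wnt9a, Wnt9b, Wnt10a and Wnt11 (2 probes) were well above background on 0 of 7 arrays. The second Wnt7b probe (A_55_P2823847), annotated to another transcript accession, passed on 1 of the 4 Wnt4βKO arrays and 0 of the 3 control arrays. For the 7 genes without a detected probe the arrays give an upper bound and no difference, and the normalized values of the groups overlapped for every one of these probes. Wnt5a, the closest relative of Wnt5b, lay between 19 and 22 (A_51_P162272) and between 19 and 22.5 (A_55_P2219765). Wnt3 lay between 19 and 22 and Wnt2b between 19 and 23.

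The scanner's weaker call, positive and significant, was met on all 7 arrays by 5 of the 10 genes. It added Wnt9a, a ligand of joint formation, at 20 to 25.5 units and 1 of the Wnt11 probes (A_51_P503131) at 20 to 25 units. Above the 95th percentile of negative spots, Wnt9a was found on 5 arrays and that Wnt11 probe on 6, so that rule again gave 3 genes. Wnt5a met the weaker call on 1 and 2 arrays, Wnt9b on 1, Wnt10a on 2, Wnt3 on 3 and Wnt2b on 4. In islets as prepared here, detection was therefore the same for Wnt4, Wnt5b and Wnt7b under the 3 rules, and depended on the rule for Wnt9a and Wnt11. The second Wnt7b probe depended on it too, since it met the weaker call and lay above the 95th percentile of negative spots on all 7 arrays.

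**Figure D1:**
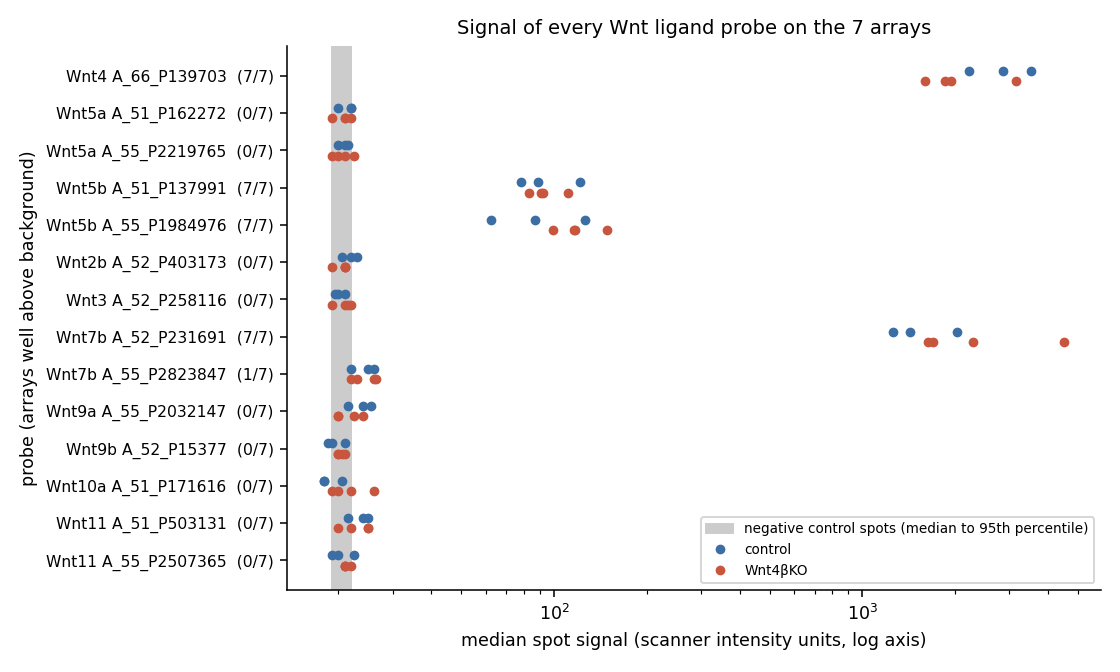
Median spot signal of the 14 Wnt ligand probes, on a log axis in scanner intensity units, with 1 point per array, control above and Wnt4βKO below each line. The grey band runs from the lowest median to the highest 95th percentile of the negative control spots (19 to 22), and 4 probes, of Wnt4, Wnt5b (2) and Wnt7b, stand clear of it.

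For the 4 probes that could be tested, values are given below on the log2 scale after background correction and quantile normalization, and differences are Wnt4βKO minus control. Adjusted limma p-values passed 0.05 for 0 of the 4 probes, with 0.0153% of all 26151 tested probes called. At an unadjusted limma p under 0.05 there were 2 of 4, Wnt4 as the lower one and 1 Wnt5b probe as the higher one, and 6.96% of all tested probes reached that level (1821 probes, 3.33% higher and 3.63% lower). Under median scaling 770 probes reached it and with the mean of the acinar markers as a covariate 648. The median difference over the 4 probes was 0.21, beside 0.0027 over all tested probes. A count of 4 is too small to be read as a share.

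The Wnt4 probe read 11.56, 11.17 and 11.77 in control replicates 2, 3 and 4. It read 11.30, 10.80, 11.04 and 10.92 in Wnt4βKO replicates 1 to 4. Wnt4βKO replicates 2, 3 and 4 were below every control array, and replicate 1 was above control replicate 3, so the groups overlapped. The difference was -0.49 ± 0.17 (SE; 95% confidence interval -0.89 to -0.088), an islet signal at 71.3% of control. The unadjusted limma p was 0.0232, the adjusted p 0.651 and the exact permutation p 0.114. Whether the probe lies in the deleted stretch of Wnt4 was not determined, and in bulk RNA fewer cells that make a transcript and less transcript per cell cannot be told apart. Without control replicate 2 or 4, or Wnt4βKO replicate 2 or 4, the unadjusted limma p was 0.0664, 0.0857, 0.0577 or 0.0543.

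Wnt5b differed between its probes. Probe A_55_P1984976 read 6.80, 7.01 and 6.96 in control islets, and 7.41, 7.07, 7.28 and 7.42 in Wnt4βKO islets. All 4 Wnt4βKO arrays were above all 3 control arrays. The difference was 0.37 ± 0.11 (SE; 95% confidence interval 0.12 to 0.63), or 1.29-fold, with an unadjusted limma p of 0.0102 and an adjusted p of 0.595. The exact permutation p was 0.0571, the smallest that 3 arrays against 4 allow. Of the 3 tested ligand probes other than Wnt4, 1 had groups that did not overlap, this one. Among the 26102 tested probes with a value on all 7 arrays, 7.23% had groups apart (3.53% with Wnt4βKO higher and 3.70% with it lower). Before normalization the spot signals of this probe overlapped, at 62.5 to 126.5 in control and 99 to 149 in Wnt4βKO.

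Wnt5b probe A_51_P137991 is annotated to another transcript accession of the gene, but where either probe lies on the exons was not determined, so they may detect the same transcripts. It read 7.03, 6.97 and 6.98 in control islets and 6.92, 6.88, 7.22 and 7.13 in Wnt4βKO islets. The Wnt4βKO arrays lay on both sides of the control arrays, replicates 1 and 2 below and 3 and 4 above. The difference was 0.045 ± 0.10 (SE; 95% confidence interval -0.19 to 0.28). The unadjusted limma p was 0.667, the adjusted p 0.957 and the exact permutation p 0.629. Within an array, A_55_P1984976 minus A_51_P137991 was -0.23, 0.04 and -0.02 in control and 0.49, 0.19, 0.06 and 0.28 in Wnt4βKO (difference 0.33; exact permutation p = 0.0571), a comparison chosen after the values were seen. The higher Wnt5b value was thus seen with 1 of the 2 probes, and the r between the probes over the 7 arrays was 0.31.

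The detected Wnt7b probe read 10.94, 10.67 and 10.31 in control and 11.85, 10.63, 11.26 and 10.99 in Wnt4βKO islets. Replicates 1, 3 and 4 were above every control array, and replicate 2 was below 2 of them. The difference was 0.54 ± 0.29 (SE; 95% confidence interval -0.13 to 1.21), or 1.46-fold. The unadjusted limma p was 0.0970, the adjusted p 0.771 and the exact permutation p 0.171. The interval holds both no difference and one of more than 1 on the log2 scale. Leaving out Wnt4βKO replicate 1, the brightest, gave 0.32, and leaving out Wnt4βKO replicate 2 gave 0.73, with an unadjusted limma p of 0.0274.

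The acinar mean per array was 13.97, 13.87 and 13.82 for the control samples (replicates 2 to 4), against 12.95, 13.73, 13.68 and 13.18 for the Wnt4βKO samples (replicates 1 to 4). Wnt7b was brightest where that mean was lowest, in Wnt4βKO replicate 1, while among the control arrays Wnt7b had the same order as the acinar mean. With the acinar mean as a covariate the Wnt7b difference was 0.13, with an unadjusted limma p of 0.741, and that of Wnt5b probe A_55_P1984976 was 0.18, with an unadjusted limma p of 0.196. The Wnt4 difference in that fit was -0.69, with an unadjusted limma p of 0.0225, and Wnt5b A_51_P137991 differed by 0.083. The acinar mean did not overlap between the groups, so in that fit the covariate and the genotype cannot be told apart.

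**Figure D2:**
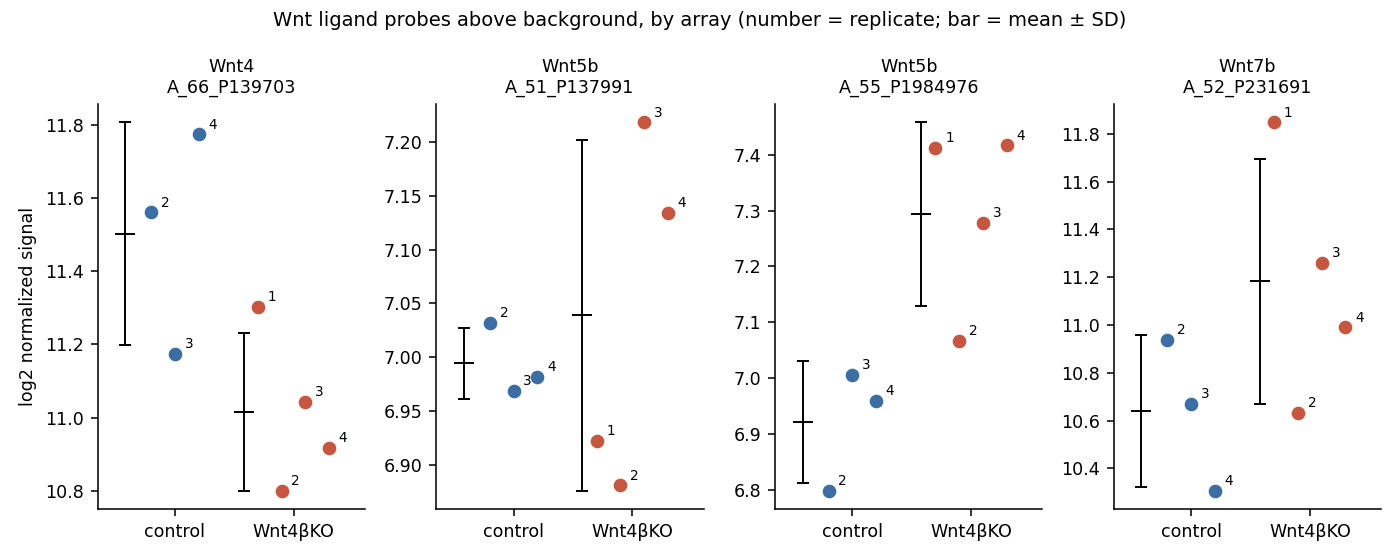
Log2 normalized signal of the 4 detected Wnt ligand probes, with 1 point per array (3 control in blue, 4 Wnt4βKO in red), the replicate number beside each point and the mean ± SD as a black bar; each panel has its own axis. The groups are apart for Wnt5b A_55_P1984976 (up to 7.01 in control, from 7.07 in Wnt4βKO) and overlap for the other 3 probes.

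All arrays came from 1 slide and had 1 scan date. Within the first row of the slide (control replicate 4 and Wnt4βKO replicates 1 and 2) Wnt4 differed by -0.72, and within the second row (control replicates 2 and 3, Wnt4βKO replicates 3 and 4) by -0.39. Wnt5b A_55_P1984976 differed by 0.28 and 0.45, and Wnt7b by 0.93 and 0.32. Wnt5b A_51_P137991 was -0.080 in the first row and 0.18 in the second, so its direction did not hold within rows.

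Whether a ligand was higher in the very islets where Wnt4 was lower was asked over the 7 arrays, in 3 relations. Wnt5b A_55_P1984976 had r = -0.53 and rho = -0.61 with Wnt4 (exact permutation p = 0.226 and 0.167, the first 0.677 after adjustment). Wnt7b had r = -0.20 and rho = -0.14 (exact permutation p = 0.697 and 0.783, adjusted 0.785 and 0.906). Wnt5b A_51_P137991 had r = -0.14 and rho = 0.071 (exact permutation p = 0.785 and 0.906, adjusted 0.785 and 0.906). None passed.

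The negative values did not hold inside the groups. On deviations from the group means r was 0.25, 0.44 and 0.019 in the same order (permutation p = 0.595, 0.326 and 0.965). Pairings were permuted across both groups, although deviations sum to 0 within each group, so these p-values are approximate. Without the arrays farthest from the median of Wnt4, control replicates 4 and 2, r was 0.22, 0.66 and -0.11. Only control replicate 3 then remains, so most of the contrast between the groups is removed and the change of sign cannot show dependence on outlying arrays. Without control replicate 2 alone r was -0.37 for Wnt5b A_55_P1984976 and -0.21 for Wnt7b, and without control replicate 4 alone -0.45 and 0.33. Among the 4 Wnt4βKO arrays, Wnt7b had the same order as Wnt4 itself, lowest in replicate 2 and highest in replicate 1.

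**Figure D3:**
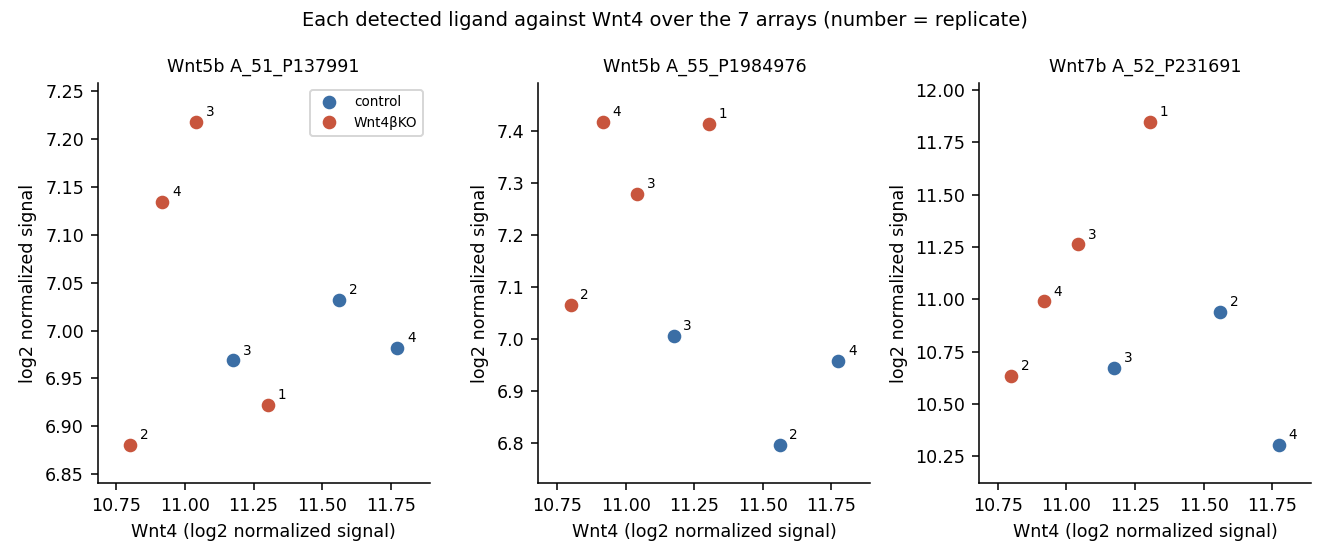
Log2 normalized signal of Wnt5b A_51_P137991, Wnt5b A_55_P1984976 and Wnt7b (vertical) against that of Wnt4 (horizontal) over the 7 arrays, control in blue and Wnt4βKO in red, numbered by replicate. Pearson's r was -0.14, -0.53 and -0.20, and the points of a group do not run downwards in the Wnt7b panel for Wnt4βKO.

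Ratios within an array, chosen after the values were seen, show how far the ligands moved apart from Wnt4. Wnt7b minus Wnt4 on the log2 scale was -0.62, -0.50 and -1.47 in control and 0.54, -0.17, 0.22 and 0.07 in Wnt4βKO islets. The groups were apart, by 1.03 (exact permutation p = 0.0571). Wnt5b A_55_P1984976 minus Wnt4 shifted by 0.86 with groups apart (exact permutation p = 0.0571), and Wnt5b A_51_P137991 minus Wnt4 by 0.53 with overlap (0.114). The lower Wnt4 value is part of every one of these shifts. How many of all tested probes have a ratio to Wnt4 with groups apart was not computed. The separation is therefore not read as a trait of Wnt7b or Wnt5b.

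Across 20 other settings for the fit, Wnt4 stayed between -0.69 and -0.35, Wnt5b A_55_P1984976 between 0.18 and 0.59 and Wnt7b between 0.13 and 0.73. The unadjusted limma p was under 0.05 in 13, 17 and 1 of those settings. Wnt5b A_51_P137991 ran from -0.015 to 0.18 and was below 0 in 2 settings, median scaling and without Wnt4βKO replicate 3. No ligand probe passed the adjusted threshold in any of the 20.

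**Figure D4:**
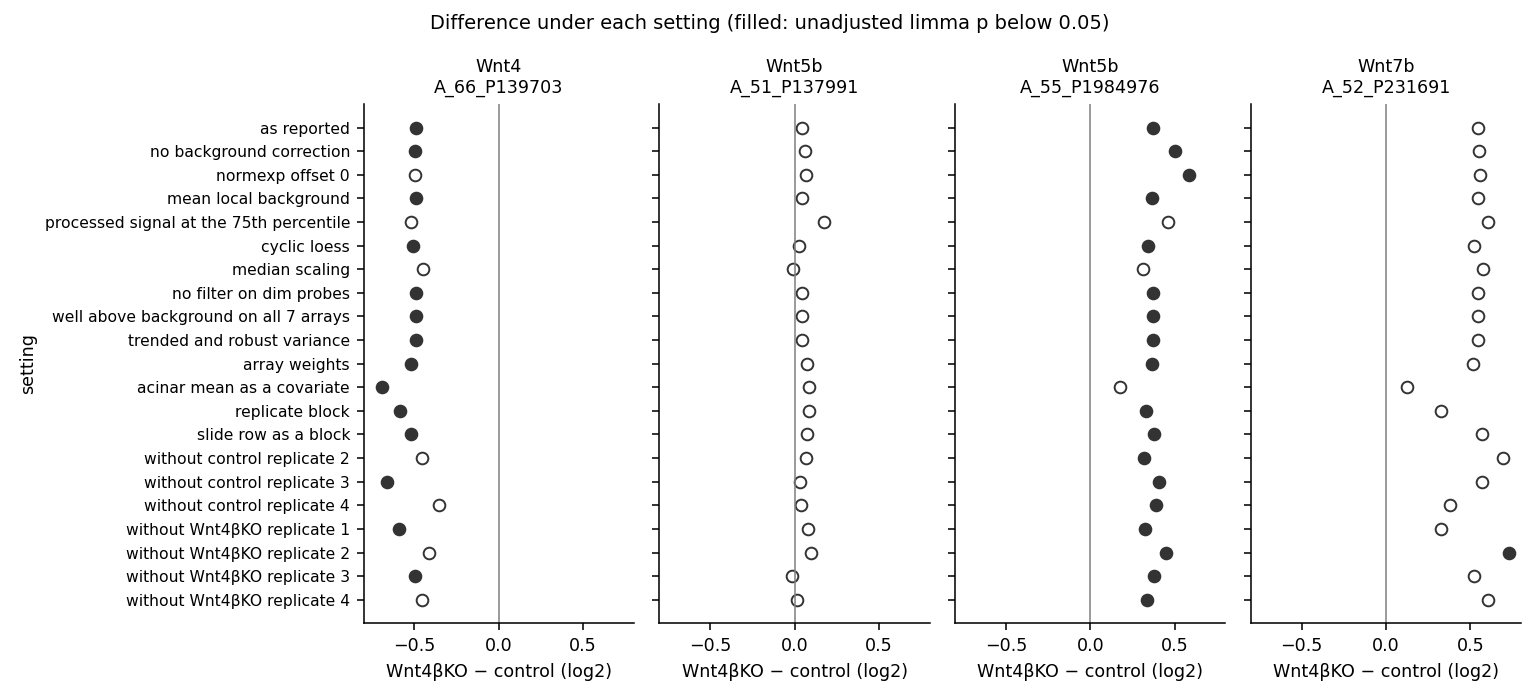
Difference between Wnt4βKO and control (log2, horizontal) of the 4 detected ligand probes as reported and under 20 other settings (vertical), filled where the unadjusted limma p was below 0.05. Wnt4 stays left of 0 and Wnt5b A_55_P1984976 and Wnt7b right of it, while Wnt5b A_51_P137991 lies around 0.

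The probes most like those of Wnt4 and Wnt5b over the 7 arrays were found among 16065 named probes above background on every array. For Wnt4 they were those of Rbm48 (r = 0.978), Gadd45b, a stress-induced gene (0.970), and Trmt5, a tRNA methyltransferase (0.962). For Wnt5b A_55_P1984976 they were Ralgapa1 (0.984), Aprt, an adenine salvage enzyme (0.980), and Cystm1 (0.977), and for Wnt5b A_51_P137991 Kctd9 (0.971), Map4k2 (0.969) and Zfp524 (0.964). The lists of the Wnt5b probes shared no gene. These are the highest of many values of r over 7 arrays and describe the arrays only.

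The remaining 9 Wnt genes had 10 probes, of which that of Wnt1, a ligand of midbrain development, was tested. It read 6.32, 6.17 and 6.34 in control and 6.50, 6.25, 6.26 and 6.25 in Wnt4βKO islets, a difference of 0.039 ± 0.091 (SE), with an unadjusted limma p of 0.681 and an adjusted p of 0.961. Its spot signal was 38 to 55 units. Wnt2, Wnt3a, Wnt6, Wnt7a, Wnt8a, Wnt10b and Wnt16 were well above background on 0 arrays and Wnt8b on 1.

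The genes that release, carry and receive Wnt ligands were read from a list of 66, the remaining Wnt genes included, each represented by its brightest tested probe. Of these 33 could be tested, and 0 passed the adjusted limma threshold. An unadjusted p under 0.05 was reached by 2 of the 33, both lower in Wnt4βKO islets, a share near the 6.96% of all tested probes (3.63% lower) and so no result about the list. The median difference of the 33 genes was 0.017.

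Among the 6 tested genes of ligand processing and release, 1 was lower at an unadjusted p under 0.05. Tmed2, a cargo receptor of the early secretory pathway that helps Wnt ligands leave the cell, read 12.06, 12.08 and 12.21 in control and 11.47, 11.85, 11.57 and 11.96 in Wnt4βKO islets. The groups were apart, with a difference of -0.41 ± 0.13 (SE), an unadjusted limma p of 0.0164 and an adjusted p of 0.625. Its dimmer probe differed by -0.34 with overlapping groups and an unadjusted limma p of 0.0372. Wls, the carrier of Wnt ligands, differed by -0.33 ± 0.17 with overlapping groups and an adjusted limma p of 0.769. Porcn differed by 0.12 ± 0.11 and Notum, an enzyme that removes the lipid, by 0.027 ± 0.091, both within the spread between arrays.

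None of the 6 tested Frizzled receptors had an unadjusted p under 0.05, and their differences ran from -0.080 (Fzd8) to 0.12 (Fzd4). Among 7 tested co-receptors and alternative receptors none did either. Lrp6 had the widest gap of these, 9.15, 8.43 and 8.89 in control and 7.72, 8.21, 8.42 and 8.85 in Wnt4βKO islets. Its difference was -0.52 ± 0.28 (SE), with an adjusted limma p of 0.772, Wnt4βKO replicate 1 lowest and overlapping groups. The dimmer Lrp6 probe differed by -0.13, with overlapping groups and an unadjusted limma p of 0.169. Lrp5 differed by 0.091, Ror2 by 0.15, Ryk by -0.13 and Ptk7 by 0.19.

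Sostdc1, a secreted inhibitor that binds Lrp co-receptors and also BMP ligands, was the other gene at an unadjusted p under 0.05. It read 7.00, 6.95 and 7.11 in control and 5.93, 6.60, 6.57 and 6.48 in Wnt4βKO islets. All Wnt4βKO arrays were below all control arrays, and in Wnt4βKO replicate 1 the probe was not well above background. The difference was -0.63 ± 0.17 (SE), with an unadjusted limma p of 0.00677 and an adjusted p of 0.557. With the acinar mean as a covariate Sostdc1 differed by -0.29 and Tmed2 by -0.35, with unadjusted limma p-values of 0.136 and 0.125. Here too the covariate and the genotype cannot be told apart. The size of the Sostdc1 difference depended on the background correction, at -1.02 with none, -1.38 with an offset of 0 and -2.00 with the processed signal.

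The antagonists that bind the ligand itself showed no gene at an unadjusted p under 0.05 among the 2 tested, Frzb (0.20 ± 0.15) and Sfrp5 (0.036 ± 0.13), and Sfrp1, Sfrp2, Sfrp4, Wif1 and Cer1 were not tested because too few arrays were above background. Of the R-spondins, Norrin and their receptors, 5 of 11 were tested and 0 reached that level. Of the proteoglycans that carry Wnt at the cell surface, 4 of 6 were tested, again with 0, and Sdc4 had the largest difference among them, at -0.28 ± 0.16, with an adjusted limma p of 0.789.

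**Figure D5:**
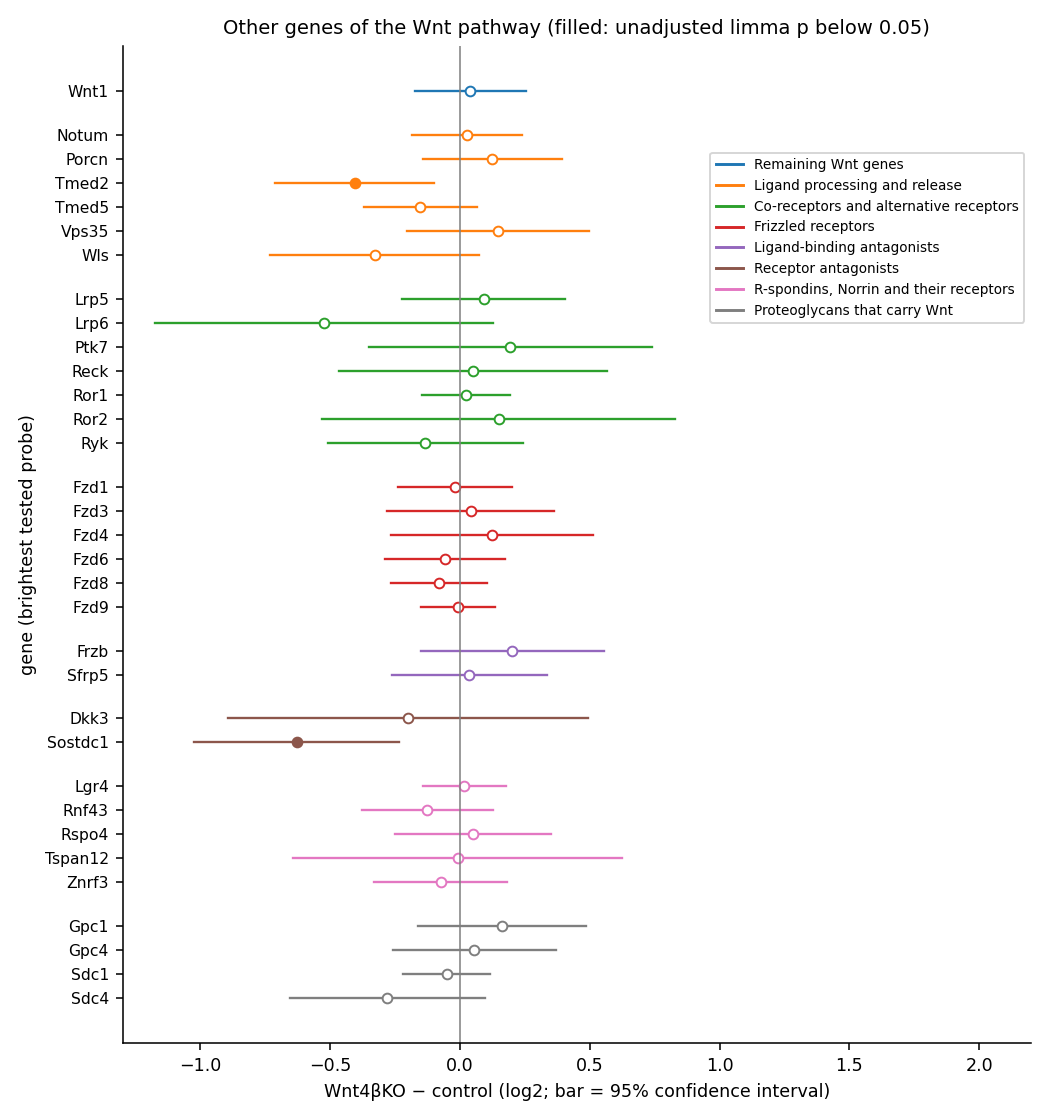
Difference between Wnt4βKO and control (log2, horizontal, with 95% confidence interval) for the 33 tested genes of the Wnt pathway lists, coloured by role and filled where the unadjusted limma p was below 0.05. Tmed2 and Sostdc1 lie left of 0 with their intervals, and the intervals of all the other genes include 0.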

How the data were processed

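Islet RNA of 3 control and 4 Wnt4βKO samples, 50 ng per sample, was labelled with Cy3 and hybridised to single-colour arrays. The authors deposited the scanner output of each array, in which spot intensities are linear and unscaled (Agilent Feature Extraction 12.0.1.1 per the file headers). The study's methods name normexp with an offset of 50, quantile normalization and limma, and these were followed.

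Median spot signal and median local background entered the correction. Control spots were then dropped, and spots that the scanner software marked as uneven or as outliers counted as missing. A probe was tested if it passed the call for well above background on 3 or more arrays, which 26151 of 56605 did. Fits were made with limma 3.58.1 (R 4.3.3; lmFit, eBayes, two-sided), with Benjamini-Hochberg adjustment over all tested probes, and single probes also had an exact permutation test over arrays. Where nothing else is said, n is 3 control and 4 Wnt4βKO arrays. Accessions were matched to a RefSeq table of GRCm38.p6, which named 32994 probes (58.3%).

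The rule for named genes took every ligand, the pathway genes at an unadjusted p under 0.05, Ins1, Ins2, Gcg, marker lists by their mean, and the 3 probes most correlated with Wnt4 and with Wnt5b. Further pathway genes were named after their values were seen. Members and lists were chosen with earlier results of these data known. The fit was tested on simulated data. Python 3.11.15 drew the plots. A value table of the series that the authors also deposited was not used here, since none of its columns could be matched to its array.

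The alternatives tried were an offset of 0, no background correction, the mean local background, the processed signal (75th percentile), median scaling, cyclic loess, all probes, probes detected on all 7 arrays, a trended and robust variance, array weights, the acinar mean as a covariate, blocks for replicate number and slide row, and each array left out. With 1 slide and 1 scan date neither could be a block. Ratios within an array were added after the data were seen.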

Additional observations from a re-analysis of the deposited data

Results flagged for a closer look

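Wnt1 was singled out among 20 measures examined for 1 array standing apart within the 4 Wnt4βKO arrays. Its probe (A_55_P2106911) read 6.50 in replicate 1 and 6.25, 6.26 and 6.25 in replicates 2 to 4. The gap from replicate 1 to the nearest of the others was 0.936 of the whole range, above the 95% critical value of Dixon's test for 4 values. About 1 in 20 groups passes that value by chance. The same array had the highest Wnt7b signal, 11.85, and the lowest mean of acinar markers, 12.95. The part of these values in the Wnt1 signal was not tested.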

How the results depend on the processing

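No ligand probe and no gene of the pathway lists passed the adjusted threshold under any of the 20 alternatives of the fit. At an unadjusted limma p under 0.05 the ligand count was 2, and it was 0 with the processed signal and with median scaling, and 1 with the acinar covariate, with an offset of 0, and when control replicate 2 or 4 or Wnt4βKO replicate 4 was left out. Over all probes, that level was reached by 1821, by 770 with median scaling, 648 with the acinar covariate and 2909 of 56602 with no filter. Over all tested probes, the 4 calls became 7 with the processed signal, 2 with the acinar covariate and 2 with the replicate block, and 2 to 5 when an array was left out, with 2 without control replicate 2, 3 or 4 or Wnt4βKO replicate 3. Pathway genes at an unadjusted p under 0.05 ranged from 0 to 5.

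Wnt4, Wnt5b A_55_P1984976 and Wnt7b kept their direction under all 20 alternatives. Wnt5b A_51_P137991 was -0.0086 with median scaling and ran from -0.015 to 0.098 when 1 array was left out. Detection gave 5 ligands in place of 3 with the positive and significant call. For the r with Wnt4, median scaling gave 0.17 (Wnt5b A_51_P137991), 0.10 (Wnt5b A_55_P1984976) and 0.24 (Wnt7b), deviations from group means gave 0.019, 0.25 and 0.44, and leaving out the arrays farthest from the median of Wnt4 gave 0.22 for Wnt5b A_55_P1984976 and 0.66 for Wnt7b. Leaving out 1 array gave -0.57 to 0.052, -0.71 to -0.37 and -0.46 to 0.33. Sostdc1 ran from -2.00 with the processed signal to -0.29 with the acinar covariate. Wnt1 was -0.078 with the acinar covariate, -0.022 with the replicate block and -0.022 to 0.072 without 1 array. The cause was not tested.

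The study's controls were littermates, but nothing says that the replicate number pairs samples, and the main fit used no pairing. Deviations of same-numbered arrays of the groups had correlations of -0.13, 0.23 and -0.0069. Deviations sum to 0 within each group, so these values cannot show whether the samples are paired. With the replicate number as a block, Wnt4 was -0.58, Wnt5b A_55_P1984976 0.33, Wnt7b 0.32 and Wnt5b A_51_P137991 0.084, with 0 ligand probes past the adjusted threshold. Probes near background limit what can be said of 7 ligands to a bound.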
